A study of Mus musculus with 2 samples.

Results

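Floor plate-like cells of the ventral midline were picked from single-cell RNA profiles of mouse embryonic brain by 5 genes. A barcode, the tag of 1 droplet, was taken when it held a UMI (a counted RNA molecule) of at least 2 of Shh, Foxa2, Foxa1, Corin and Ntn1, of which at least 1 was Shh or Foxa2. It also had to hold 0 UMIs of the epithelial genes Epcam, Cdh1 and Trp63, the mesenchymal gene Pdgfra and the endodermal gene Hnf4a. The rule took 130 of 18572 barcodes in the control library and 284 of 19056 in the neural tube defect (NTD) library, 414 of 37628 in all. After removal of called doublets, droplets that look like 2 cells, 110 and 246 members were left, and the values below are from these. The rule uses measured values, so the levels of its 5 genes in the members are given as a description only.

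The NTD embryos came from mouse dams fed a low-folate diet and injected into the peritoneum with 1.5 mg/kg of MTX (methotrexate, a folate antagonist) at gestational day 7.5. The labels give normal saline as the treatment of the control group. Closure of the neural tube was watched from embryonic day 9.5 to 10.5, and NTD embryos were described as delayed and small, mainly with hindbrain malformations and spina bifida. Strain, the diet of the control dams, and the stage, sex and number of embryos behind each library were not given in the sources used here. Each group had 1 library, so no difference below has a replicate check, no p-value was computed, and drug, diet, stage and library preparation cannot be told apart. Every interval is a 95% interval that covers counting error only.

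The floor plate is the narrow strip of cells along the ventral midline of the neural tube. It is induced by the notochord, the rod of mesoderm beneath it, and it then secretes Sonic hedgehog (Shh), whose gradient assigns ventral progenitors their fates. FOXA2 switches on the floor plate programme, and netrin 1 (Ntn1), SLIT proteins and F-spondin (Spon1) made there guide commissural axons across the midline. In the midbrain the floor plate also expresses Lmx1a and gives rise to dopaminergic neurons.

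The control library held 50741121 UMIs at a median of 2234 per barcode, and the NTD library 55524355 at a median of 2456. Members were somewhat deeper, with medians of 2734 and 3013 UMIs. The lowest total of a barcode was 1027 UMIs in the control and 1589 in the NTD library. The same barcode sequence occurred in both libraries 105 times, among them 0 control and 3 NTD members. The libraries differed in the position genes they held: 71.3% of all kept control barcodes held a Hox UMI, against 13.1% of kept NTD barcodes. Whether this difference reflects position along the body was not tested. Neuron genes differed as well, since 38.7% of kept control and 67.6% of kept NTD barcodes held UMIs of at least 3 of 12 neuron genes.

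The members rested on few molecules. In GRCm38, Shh lies on chromosome 5 (28456815 to 28467256, minus strand), Foxa2 on chromosome 2 (148042877 to 148046969, minus strand) and Foxa1 on chromosome 12 (57540628 to 57546916, minus strand). Corin, a membrane protease, lies on chromosome 5 (72300025 to 72504473, minus strand), and Ntn1 on chromosome 11 (68209364 to 68400823, minus strand). Shh was held by 80 of 110 control members (72.7%) and 203 of 246 NTD members (82.5%), and in 74 and 175 of them by a single UMI. Foxa2 was held by 39 control members (35.5%) and 57 NTD members (23.2%), and Ntn1 by 107 and 231. The rarer genes were Foxa1, in 5 and 17 members, and Corin, in 11 and 28. The commonest pair was Shh with Ntn1, in 63 control and 153 NTD members, and the next was Foxa2 with Ntn1, in 26 and 41. Ntn1 was common outside the members too, held by 19.5% of all kept control and 17.7% of all kept NTD barcodes. The corresponding shares of Shh were 1.84% and 5.08%. How many pairs these shares alone would give was not tested. Shh and Foxa2 were held together by only 9 control and 14 NTD members.

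Members just inside the rule, with 2 genes at 1 UMI each, numbered 31 in the control and 98 in the NTD library. Just outside it, 183 control and 572 NTD barcodes held Shh or Foxa2 and no other rule gene. A further 33 and 51 barcodes met the gene count but held a UMI of a barred gene. At least 3 rule genes were held by 18 control and 38 NTD members.

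Free RNA from broken cells was read from endothelial barcodes, which should lack these genes and had median depths of 2583 UMIs in the control and 2993 in the NTD library. Shh was held by 3 of 444 control endothelial barcodes (0.676%, 0.140 to 1.96%) and by 13 of 270 in the NTD library (4.81%, 2.59 to 8.09%). Over all kept barcodes these shares were 1.84% and 5.08%, so a Shh UMI was about as common in NTD endothelium as over all NTD barcodes, and a single Shh UMI there is not read as expression. With every barcode thinned to 1500 UMIs, the endothelial shares were 0.239% and 1.85%. Foxa2 was held by 2 of 444 control endothelial barcodes and by 0 of 270 in the NTD library, which with a floor of 3 counts allows a share of up to 1.11%. The full rule was met by 1 endothelial barcode in each library (0.225% of control and 0.370% of NTD endothelial barcodes).

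The label was checked against 18 floor plate genes that the rule does not use, among them Slit1, Slit2, Slit3, Spon1, Sulf1, Lmx1a, Nrcam and Alcam. At 1500 UMIs per barcode, control members held a median of 4 of these genes and NTD members a median of 2, against 1 in the other neural progenitors of either library and 1 and 0.5 in endothelium. At least 3 of the 18 were held by 67.7% of control members (57.5 to 76.7%) and 46.3% of NTD members (40.0 to 52.8%). The shares were 16.7% and 9.34% in other progenitors and 4.07% and 5.19% in endothelium. Unthinned, the shares were 78.2% and 70.3% in members, 33.1% and 24.6% in other progenitors and 11.5% and 23.3% in endothelium. Thinning left out 11 of 110 control members, 111 of 507 control progenitors and 26 of 444 control endothelial barcodes, and none of the NTD barcodes.

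**Figure D1:**
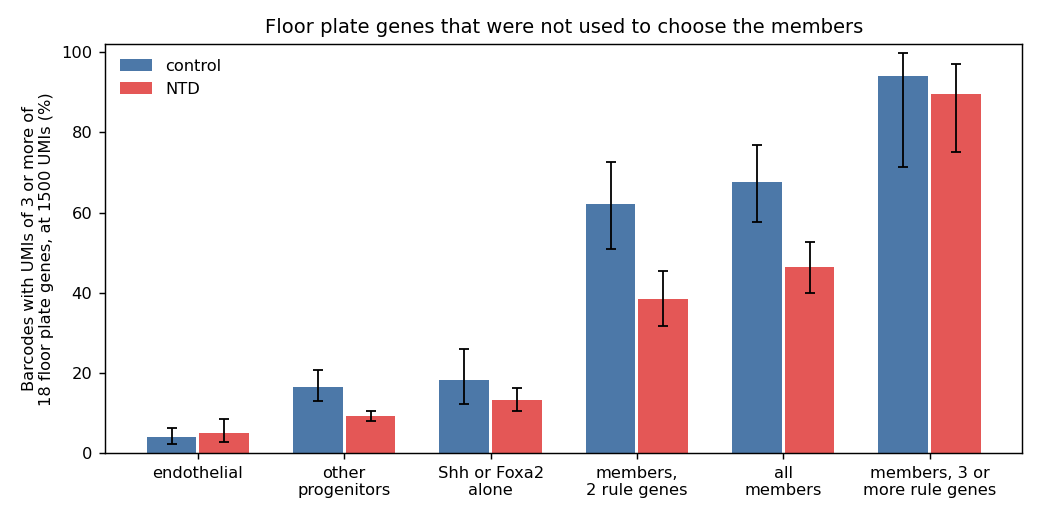
Share of barcodes (%, linear axis) that held UMIs of at least 3 of 18 floor plate genes outside the rule, after thinning to 1500 UMIs, by barcode class and library. Bars are shares and whiskers 95% Clopper-Pearson intervals. The share is 94.1% and 89.5% in members with 3 or more rule genes and 62.2% and 38.5% in members with 2.

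The count followed the number of rule genes. Members with at least 3 rule genes held a median of 6 (control) and 5 (NTD) of the 18 genes, and members with 2 rule genes held 3 and 2. Barcodes with Shh or Foxa2 alone, just outside the rule, held a median of 1 in both libraries, like the other progenitors. The 18 genes do not separate all midline cells, since 43.9% of control and 41.9% of NTD roof plate-like barcodes, at the dorsal midline, also held at least 3.

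Defining notochord genes were at or near 0 in members, whereas the keratins of the same list were not. The notochord gene T had 1 UMI in control and 0 in NTD members, and Noto had 0 in both, which allows up to 8.86 CPM in control and 3.23 CPM in NTD members. CPM is the UMI count of a gene summed over a class, scaled in the usual way to 1 fixed total per class. Krt8 stood at 59.1 CPM (20 UMIs) in control and 19.4 CPM (18 UMIs) in NTD members, and Krt18 at 53.2 CPM (18 UMIs) and 23.7 CPM (22 UMIs). The 9 notochord genes, which share 4 with the endoderm list, summed to 133 and 62.4 CPM in members, 94.4 and 78.7 CPM in other progenitors and 145 and 105 CPM in endothelium. The endodermal gene Sox17 had 1 UMI in each library. Some floor plate genes were also sparse: Ferd3l, Nkx2-9, Foxj1 and Sema3b had 0 UMIs in control members, and in NTD members the first 3 had 3, 4 and 8 UMIs.

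The members made up 0.708% of kept control barcodes (0.582 to 0.853%) and 1.48% of kept NTD barcodes (1.30 to 1.67%), a 2.09-fold higher share in the NTD library (1.66 to 2.64). Thinned to 1500 UMIs per barcode, the shares were 0.424% and 0.618%, a ratio of 1.46 (1.03 to 2.08). The 2 core genes differed: members that held Foxa2 made up 0.251% and 0.342% of kept barcodes, a ratio of 1.36 whose interval of 0.891 to 2.10 held 1. Members with Shh and no Foxa2 made up 0.457% and 1.13%, a ratio of 2.48 (1.88 to 3.31). The Shh share of NTD endothelial barcodes given above moved the same way, and its part in the ratio was not tested. The split by core gene was made after the values were seen.

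The members were next set against other neural progenitors, which held UMIs of at least 2 of Sox2, Sox1, Sox3 and Hes5 and 0 UMIs of the 5 rule genes and the 5 barred genes. Such barcodes numbered 507 among control and 2109 among NTD barcodes. Of 7700 genes measured, with at least 30 UMIs over the members of both libraries, 346 were at least 1.5-fold higher in members in both libraries (4.49%) and 52 at least 1.5-fold lower in both (0.675%). The first count includes the 4 measured rule genes Shh, Foxa2, Corin and Ntn1. Foxa1, with 5 and 19 UMIs, was not measured. Of the 18 floor plate genes outside the rule, 13 were measured and 9 of them were at least 1.5-fold higher in both libraries.

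Several of the highest ratios belonged to genes of secreted guidance and matrix proteins. Spon1, the gene of F-spondin (chromosome 7, 113765998 to 114043370, plus strand), stood at 1184 CPM in control members (401 UMIs) and 704 CPM in NTD members (655 UMIs). The other progenitors had 89.1 and 42.1 CPM. The log2 ratios of members over progenitors were 3.73 (3.43 to 4.04) in the control and 4.06 (3.85 to 4.28) in the NTD library, so the gap was similar in both although both levels were lower in the NTD library. Roof plate-like barcodes had 14.7 CPM of Spon1 (2 UMIs) in the control and 30.2 CPM (5 UMIs) in the NTD library.

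The SLIT genes, whose proteins repel axons through ROBO receptors, were all higher in members. Slit1 stood at 319 and 143 CPM in control and NTD members and at 40.0 and 13.6 CPM in progenitors, with log2 ratios of 2.99 (2.51 to 3.50) and 3.39 (2.99 to 3.82). Slit2 stood at 2499 and 1929 CPM in members and 539 and 360 CPM in progenitors, with log2 ratios of 2.21 and 2.42. Slit3 had smaller ratios, 1.54 and 1.80. Slit2 was also high in roof plate-like barcodes, at 2192 and 1670 CPM, whereas Slit1 stood there at 73.3 and 66.5 CPM.

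Sulf1, an extracellular enzyme that trims heparan sulfate, stood at 1078 and 687 CPM in members against 103 and 94.1 CPM in progenitors (log2 ratios 3.39 and 2.87). The adhesion molecules Alcam and Nrcam were also at least 1.5-fold higher in both libraries. Lrp1b, a large endocytic receptor, stood at 552 and 581 CPM against 42.3 and 45.1 CPM, with log2 ratios of 3.70 and 3.68. One barcode held 154 of the 540 NTD UMIs of Lrp1b. The transcription factor Lmx1a stood at 219 and 134 CPM against 20.4 and 17.98 CPM (log2 ratios 3.40 and 2.90), and Sim1 at 154 and 76.3 CPM against 24.9 and 9.33 CPM (2.62 and 3.03).

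The largest ratio among genes of at least 50 CPM belonged to Ttc6, a tetratricopeptide repeat gene. It had 36 UMIs in control and 92 in NTD members (106 and 98.9 CPM), and 3 and 13 UMIs in the other progenitors (2.27 and 2.21 CPM). The log2 ratios were 5.35 (3.89 to 7.90) and 5.44 (4.64 to 6.45). Endothelial barcodes held 0 and 1 UMIs of it, and roof plate-like barcodes 0 in both libraries. The levels in members were 4.83-fold (control) and 5.45-fold (NTD) the level that a floor of 3 counts allows in the roof plate-like class. These folds leave out the counting error of the members. Ttc6 lies beside Foxa1 and spans 57564113 to 57737928 of chromosome 12 on the plus strand. Its start is 17197 bases from the start of Foxa1, which lies on the minus strand.

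The promoter of Ttc6 is shown because an X-box, the site of the RFX factors that drive genes of cilia, was found there and some genes of cilia were higher in members. The window is chr12:57564053-57564112 of GRCm38.p6, plus strand, from RefSeq's promoter table, and ends at the base before the gene in GENCODE. The X-box match, bases 17 to 5 before RefSeq's start, is in capitals.
Ttc6 promoter: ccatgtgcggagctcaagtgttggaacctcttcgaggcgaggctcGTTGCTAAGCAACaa
The motif searched was GTTGC and GCAAC separated by any 3 bases, which reads the same on both strands, and it was chosen after this sequence was seen. Of 32851 promoter entries, 250 bases before to 50 after each start, 74 held it (0.225%). The 5 rule genes and the 15 genes of the largest ratios gave 20 symbols, of which 12 matched the table with 14 promoters, and Ttc6 was the 1 with the motif. Of the 346 genes higher in members of both libraries, 244 matched with 375 promoters, and 1 of these (0.267%), again that of Ttc6, held the X-box, against 18 of 7881 promoters of measured genes (0.228%). The forkhead motif TGTTTAC or its complement GTAAACA was in 1 of the 14, that of Foxa1, and in 3.65% of all promoters. It was in promoters of 13 of the 244 genes (5.33%) and of 192 of 6060 measured genes with an entry (3.17%), a difference that was not tested. The Gli motif GACCACCCA or TGGGTGGTC was in 0 of the 14, 0 of the 375 and 0.253% of all. Matches are a description of letters only.

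Of 17 listed genes of cilia, 14 were measured and 3 were at least 1.5-fold higher in both libraries, beside 4.49% of all measured genes. The 17 genes summed to 1955 and 1493 CPM in members and 1010 and 850 CPM in other progenitors. Roof plate-like barcodes had 1539 and 1712 CPM, so the higher sum was not particular to the members. Rfx4, an RFX transcription factor, stood at 771 and 456 CPM in members against 242 and 138 CPM in progenitors (log2 ratios 1.67 and 1.73). Rfx3 stood at 650 and 501 CPM against 329 and 309 CPM (0.99 and 0.70). Dnah9, a dynein heavy chain of motile cilia, stood at 59.1 and 29.0 CPM against 6.80 and 5.43 CPM (3.08 and 2.42). The remaining 11, such as the transport gene Ift57 (log2 ratios 0.54 and 0.25), missed that size in at least 1 library. Another 3, Jhy, Rp1 and Dnah11, were chosen after their values were seen. Jhy, linked to motile ependymal cilia, had log2 ratios of 4.59 (3.03 to 7.16) and 5.44 (4.30 to 7.06), from 21 and 44 UMIs in members. Rp1 had 5.03 (2.80 to 10.97) and 4.88 (3.57 to 6.73), and Dnah11 had 2.24 and 2.59. Foxj1, the regulator of motile cilia, had 0 and 8 UMIs in members.

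**Figure D2:**
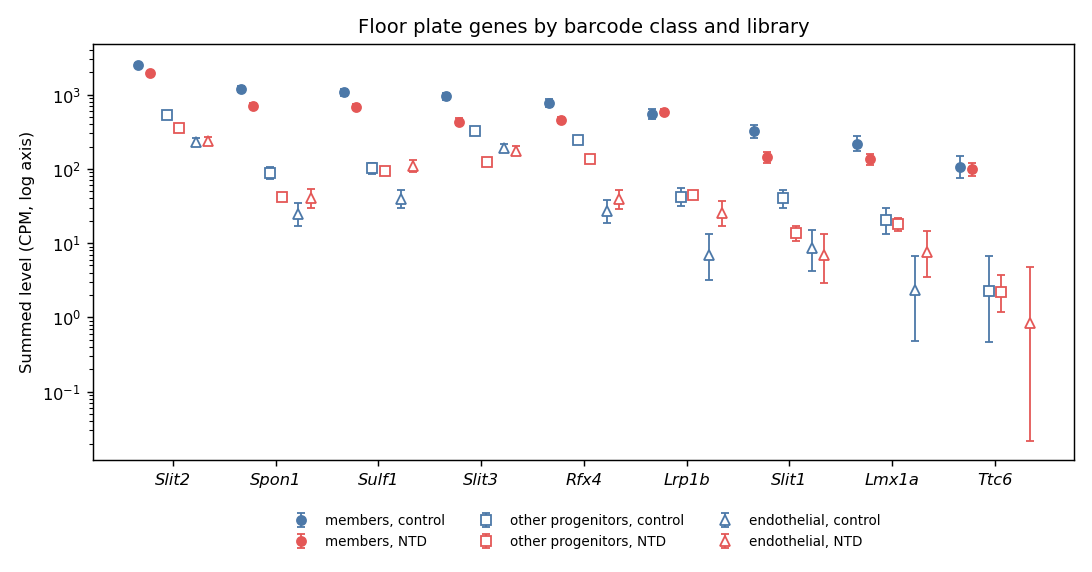
Summed level (CPM, log axis) of 9 genes in members (filled circles), other progenitors (open squares) and endothelial barcodes (open triangles) of both libraries, with 95% Poisson intervals. Classes at 0 UMIs are not drawn. For Spon1 the members stand at 1184 (control) and 704 (NTD) and the progenitors at 89.1 and 42.1.

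Lower in members were the progenitor genes that had defined the comparison class (Sox2, Sox1, Sox3 and Hes5) and several guidance and dorsal genes, which were named after their values were seen. Of 19 measured guidance genes 6 were at least 1.5-fold higher and 3 lower in both libraries, and of 7 measured dorsal genes 2 and 3, beside 4.49% and 0.675% of all measured genes. The 6 higher guidance genes include Ntn1, whose direction the rule fixed. The 3 lower ones were Unc5c, Robo2 and the ephrin gene Efnb2 (log2 ratios -1.36 and -0.84). The netrin receptor Unc5c stood at 142 and 74.2 CPM against 412 and 314 CPM (log2 ratios -1.52 and -2.07). The repellent cue Sema3a, which was not in the guidance list, stood at 44.3 and 34.4 CPM against 120 and 91.1 CPM (-1.40 and -1.38). The SLIT receptor Robo2 had ratios of -0.90 and -0.93, and Robo1 had -0.24 and -0.11. The dorsal genes Pax3 and Rspo3 had ratios of -1.12 and -0.86 and of -2.25 and -1.05. Sox2 stood at 94.5 and 147 CPM against 332 and 301 CPM in a class chosen for it, which fixes that direction.

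Among Hedgehog genes the receptor Ptch1, a direct target of the pathway, stood at 260 and 239 CPM in members against 172 and 132 CPM in progenitors, with log2 ratios of 0.60 (0.22 to 0.95) and 0.85 (0.63 to 1.07). The co-receptor Boc stood lower, at 85.7 and 68.8 CPM against 153 and 118 CPM (-0.81 and -0.76). The effector Gli2 had ratios of -1.45 (-2.27 to -0.79) and -0.39 (-0.76 to -0.06). Gli1, which marks strong Hedgehog response, had only 1 and 17 UMIs in members. Of 6 measured receptors and co-receptors 2 were at least 1.5-fold higher and 1 lower in both libraries, and of 5 effectors 0 and 1, beside the same 4.49% and 0.675%.

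Between the libraries, members differed in 705 of 7700 genes that stood at least 1.5-fold higher in NTD (9.16%) and 1053 that stood at least 1.5-fold lower (13.7%). The median log2 ratio of NTD over control over all measured genes was -0.08. Floor plate genes lay mostly on the lower side: of the 13 measured outside the rule, 8 were at least 1.5-fold lower, 1 was higher, and their median was -0.65. With called doublets kept, 4 of 13 were that much lower (median -0.44), and relative to genes of like genomic span also 4 (median -0.40).

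Slit1 stood at 319 CPM (108 UMIs) in control and 143 CPM (133 UMIs) in NTD members, a log2 ratio of -1.16 (-1.53 to -0.78). Slit3 stood at 954 and 434 CPM (-1.14, -1.35 to -0.92), and Slit2 at 2499 and 1929 CPM (-0.37, -0.49 to -0.25), under the 1.5-fold line. Spon1 stood at 1184 and 704 CPM (-0.75, -0.93 to -0.57), and Sulf1 at 1078 and 687 CPM (-0.65, -0.84 to -0.46). For all of these the NTD level was the lower one, with the counting interval of the ratio below 0. Of all 7700 measured genes, 686 had that interval below 0 and 562 above it. These intervals do not cover differences between barcodes. The share of a gene's NTD UMIs that lay in 1 barcode ran from 12.2% (Sulf1) to 18.3% (Slit3). Among rule genes, described without a reading, Ntn1 stood at 1161 and 706 CPM, Foxa2 at 118 and 64.5 CPM, Shh at 266 and 258 CPM and Corin at 67.9 and 60.2 CPM.

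The remaining floor plate genes were mixed. Lmx1a had a ratio of -0.71 (-1.13 to -0.27), but -0.02 among members that held Foxa2 and -0.0049 among members with at least 3 rule genes. Alcam had -0.62, Sulf2 -1.19 and Hes1 -0.79. Wnt5a, a secreted Wnt protein of the midbrain floor plate, was the 1 higher gene, at 35.4 CPM (12 UMIs) and 71.0 CPM (66 UMIs), a ratio of 0.95 (0.10 to 2.02). Nrcam, Lmx1b and Sox9 had ratios between -0.05 and 0.13.

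**Figure D3:**
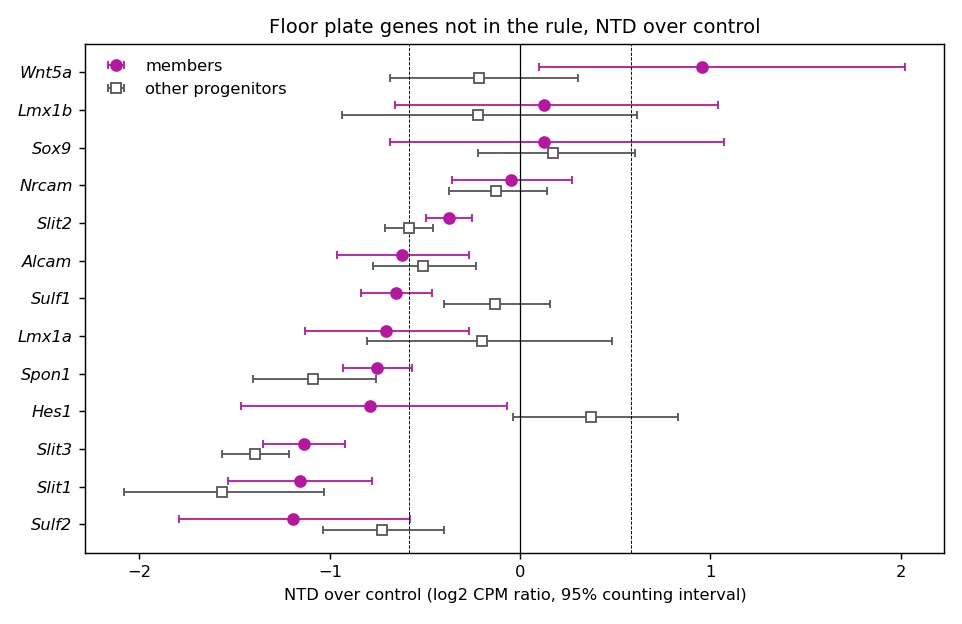
Log2 CPM ratio of NTD over control (x axis) for the 13 measured floor plate genes outside the rule, in members (filled circles) and in other progenitors (open squares), with 95% counting intervals. Dashed lines mark 1.5-fold. The medians are -0.65 in members and -0.22 in progenitors, and Slit1, Slit3, Spon1 and Sulf2 lie left of the lower dashed line in both.

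The other progenitors showed part of the same difference. There the 13 genes had a median ratio of -0.22, with 4 at least 1.5-fold lower (Slit1, Slit3, Spon1 and Sulf2) and 0 higher, and all measured genes had a median of -0.17. Slit3 stood at 327 and 125 CPM in progenitors (-1.39, -1.56 to -1.22). Sulf1 was at -0.65 in members and -0.13 (-0.40 to 0.16) in progenitors, and the difference between these values was not tested. Endothelial barcodes went the other way, with the 18 genes summing to 713 CPM in the control and 1083 CPM in the NTD library, against 7307 and 4900 CPM in members.

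Several properties moved with the library. NTD members had a mitochondrial share of 0.225% of UMIs against 0.366% in the control, and a ribosomal protein share of 10.8% against 7.41%. UMIs of at least 3 neuron genes were held by 76.8% of NTD and 54.5% of control members. The 12 neuron genes summed to 1586 CPM in control and 1928 CPM in NTD members, with 3 higher and 2 lower. At least 2 of the 4 progenitor genes were held by 37.0% of NTD and 11.8% of control members, and by 21.7% and 6.41% of all kept barcodes. Of 10 neural progenitor genes 4 were higher in NTD members and 0 lower, and the list summed to 1639 CPM in control and 2235 CPM in NTD members. It was higher in the NTD library elsewhere too, at 2099 and 2587 CPM in other progenitors and 1134 and 1958 CPM in other kept barcodes. The counts of higher and lower genes in this paragraph are at 1.5-fold, beside 9.16% and 13.7% of all measured genes. Both measured genes of the notochord list, Krt8 and Krt18, were lower in NTD members, as were 3 of 3 of the endoderm list, which holds the same pair. Of 5 measured mesenchyme genes 2 were lower and 0 higher, and the list summed to 464 CPM in control and 249 CPM in NTD members, beside 438 and 624 CPM in endothelium. Genes that span little of the genome had higher ratios: the 385 shortest measured genes had a median of 0.30 and the 385 longest -0.24. The part of these properties in the gene differences was not tested. The floor plate median was -1.004 over 8 measured genes without members of at least 3 neuron genes, and -0.84 without members that held a Hox UMI. It was -0.96 over 10 measured genes in members that held Foxa2.

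The Hedgehog co-receptors Gas1 and Cdon were lower in NTD members, at 79.7 and 38.7 CPM (-1.05, -1.80 to -0.27) and at 121 and 65.6 CPM (-0.89, -1.48 to -0.28). Without members that held a Hox UMI, Gas1 turned to 0.43, with an interval of -1.27 to 3.84 that held 0, and Cdon was -0.14. All 29 control UMIs of Boc, which had -0.33 over all members, lay in members of the Hox class, while NTD members held 20 in that class and 21, 22 and 1 in the others. Of the 6 measured receptors, 2 were at least 1.5-fold lower and 0 higher, with a median of -0.23, beside 13.7% and 9.16% of all measured genes. Ptch1 stood at 260 and 239 CPM (-0.13, -0.49 to 0.25). Of the 5 effectors, Gli2 was the 1 past 1.5-fold, at 53.2 and 82.8 CPM (0.61, -0.12 to 1.47), and with called doublets kept it turned to -0.17. Of 3 measured release genes, whose products carry the ligand out of the cell, Scube3 was past that size at 38.4 and 22.6 CPM (-0.79, -1.83 to 0.35). The other two were Disp1 (-0.47) and Scube1 (0.14).

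Among cilia genes, Rfx4 stood at 771 CPM in control members and 456 CPM in NTD members (-0.76, -0.98 to -0.53) and Dnah9 at 59.1 and 29.0 CPM (-1.03, -1.91 to -0.11). Of the 14 measured, 2 were at least 1.5-fold lower and 0 higher, with a median of -0.13. Of 14 planar cell polarity genes, which orient cells in the closing neural plate, 6 were at least 1.5-fold lower and 1 higher (median -0.39), beside 13.7% and 9.16% of all measured genes. The 20 listed genes summed to 1241 and 1008 CPM in control and NTD members. The sums were lower in the NTD library outside the members too, at 1184 and 904 CPM in other progenitors and 1371 and 996 CPM in other kept barcodes. In members, Prickle1 stood at 136 and 68.8 CPM (-0.99, -1.55 to -0.40) and Celsr1 at 82.7 and 46.2 CPM (-0.85, -1.56 to -0.10). Of 16 genes of apical constriction, 1 was lower, Myh9 (-0.75, -1.58 to 0.14), and the hinge gene Shroom3 had -0.49 (-0.82 to -0.15).

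Of 34 S phase genes 5 were at least 1.5-fold higher and 2 lower (median 0.19), and of 39 genes of G2 and M phase 3 and 1 (median 0.15), beside 9.16% and 13.7% of all measured genes. The higher share of the G2 and M phase genes is no larger than that of all genes. The replication clamp Pcna stood at 118 and 237 CPM (0.99, 0.51 to 1.53) and cyclin D1, Ccnd1, at 91.6 and 153 CPM (0.72, 0.17 to 1.35). Both were also higher in NTD progenitors, with Pcna at 180 and 289 CPM and Ccnd1 at 107 and 157 CPM.

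Alkbh1, the demethylase of DNA N6-methyladenine named in the study's title, stood at 213 CPM (72 UMIs) in control and 140 CPM (130 UMIs) in NTD members, a log2 ratio of -0.61 (-1.03 to -0.17). The ratio was -0.65 (-0.86 to -0.43) in other progenitors. Its levels in members and progenitors were close, with log2 ratios of members over progenitors of 0.26 (-0.15 to 0.63) and 0.30 (0.01 to 0.56). N6amt1 had -0.25 (-1.28 to 0.95) between the libraries. Of 18 measured genes of H3K9 methylation and heterochromatin, 1 was at least 1.5-fold lower in NTD members, Ehmt2 (-0.69, -1.50 to 0.17), and 0 were higher (median -0.14). Of 12 measured folate and one-carbon genes, 1 was lower, Mthfd2 (-0.86, -1.57 to -0.13), and 0 were higher (median -0.19). Both counts lie below the 13.7% of all measured genes that were that much lower.

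Among the genes that were higher in NTD members, Nrxn3, a synaptic adhesion gene, stood at 70.9 CPM (24 UMIs) in control and 524 CPM (487 UMIs) in NTD members (2.86, 2.29 to 3.54). One barcode held 153 of the NTD UMIs, and with called doublets kept the ratio was 0.52. Ephb1, a receptor for ephrins, stood at 82.7 and 242 CPM (1.53, 0.98 to 2.17). Xist, expressed in female cells, stood at 260 and 961 CPM (1.88, 1.57 to 2.22), with a similar gap in progenitors (178 and 850 CPM), and the sex of the embryos was not given. Others of the 10 highest were Tsix, Hist1h4d, Adarb2, Ndufa8, Ralyl and Med21, with ratios from 1.28 to 1.79.

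The lowest genes included ones that differed everywhere. Afp, a liver and yolk sac gene, stood at 168 CPM (57 UMIs) and 2.15 CPM (2 UMIs), a ratio of -5.98 (-9.37 to -4.37), but the progenitors had 212 and 2.88 CPM. The 7 liver or yolk sac genes summed to 449 and 78.5 CPM in members and to 452 and 44.3 CPM in endothelial barcodes. Hoxb3 stood at 112 and 7.53 CPM (-3.82, -5.31 to -2.72), and the glycine receptor gene Glra1 at 198 and 20.4 CPM (-3.25, -4.09 to -2.52). Pcdh15 stood at 145 and 37.6 CPM, but 1 barcode held 22 of its 49 control UMIs and 1 held 19 of its 35 NTD UMIs. The remainder of the 10 lowest were Tgfb2, Mcc, Tmeff2, Rbms3, Kif26b and Tshz2, at -2.12 to -1.72.

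The members of the libraries differed in the position genes they held, as did those of other progenitors and of all kept barcodes. A Hox UMI, the mark of hindbrain and spinal cord, was held by 79 of 110 control members (71.8%, 62.4 to 80.0%) and 47 of 246 NTD members (19.1%, 14.4 to 24.6%), a difference of -52.7 points (-61.5 to -42.2). Otx2, En1 or En2, genes of forebrain, midbrain and isthmus, were held without Hox by 12 control (10.9%) and 66 NTD members (26.8%), a difference of 15.9 points (7.07 to 23.3). Thinned to 1500 UMIs, that difference was 6.17 points (-2.82 to 13.5). The rostral ventral class, with UMIs of at least 2 of 6 genes of hypothalamus and eye field, held 0 control members, which with a floor of 3 counts allows up to 2.73%, and 10 NTD members (4.07%). The remaining 19 control (17.3%) and 123 NTD members (50%) fell in none of these classes.

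**Figure D4:**
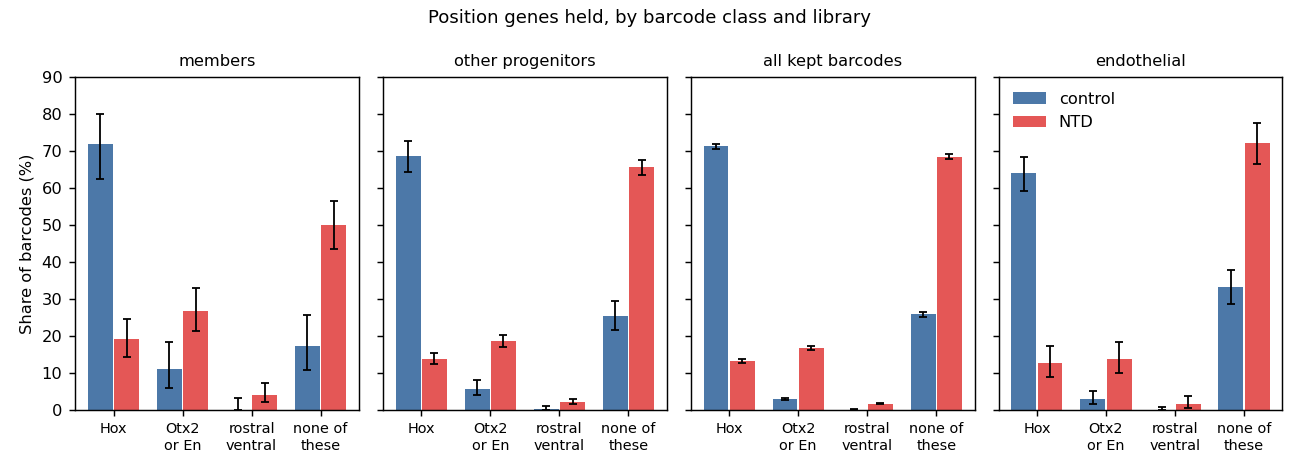
Share of barcodes (%, linear axis) in 4 position classes for members, other progenitors, all kept barcodes and endothelial barcodes of both libraries, with 95% Clopper-Pearson intervals. The Hox share is 71.8% of control and 19.1% of NTD members, and 64.0% and 12.6% of endothelial barcodes.

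The same split was seen outside the members. The Hox share was 68.6% and 13.7% in other progenitors and 64.0% and 12.6% in endothelium. The part of free RNA in the members' classes was not tested. The Otx2 or En share was 5.72% and 18.6% in progenitors and 2.93% and 13.7% in endothelium.

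Levels in members differed between the position classes, of which Hox and Otx2 or En can rest on 1 UMI. The Otx2 or En class held 12 control and 66 NTD members, and the Hox class 79 and 47. Whether these differences reflect position in the embryo was not tested. Lmx1a stood at 672 CPM (24 UMIs) in control and 208 CPM (63 UMIs) in NTD members of the Otx2 or En class, against 167 and 90.4 CPM in those of the Hox class. Spon1 stood at 364 CPM (13 UMIs) and 587 CPM (178 UMIs) in the Otx2 or En class and at 1151 and 585 CPM in the Hox class, and was highest in members outside these classes (1915 and 958 CPM). Slit2 followed another order, with 4004 and 2102 CPM in the Otx2 or En class and 1995 and 1361 CPM in the Hox class. Sim1 was close between classes, at 168 and 65.9 CPM and at 147 and 58.5 CPM.

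The 10 rostral ventral NTD members had low levels of several floor plate genes. The deepest barcode held 20922 of the 66104 UMIs of this class. Spon1 stood at 151 CPM (10 UMIs), Slit3 at 15.1 CPM (1 UMI), Sulf1 at 136 CPM (9 UMIs) and the rule gene Foxa2 at 15.1 CPM (1 UMI). Ptch1 stood at 620 CPM (41 UMIs), Nkx2-1, which partly defines this class, at 318 CPM (21 UMIs), and Nkx2-2 at 136 CPM (9 UMIs). Shh was at 166 CPM (11 UMIs).

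Members were also split by the core gene that had admitted them. Spon1 stood at 1346 and 692 CPM in Foxa2 holders and at 1104 and 708 CPM in members with Shh and no Foxa2, and Ttc6 at 88.5 and 77.4 CPM and at 115 and 106 CPM. Slit1 was higher in control Foxa2 holders (452 against 253 CPM, log2 ratio 0.84, 0.26 to 1.41) and had 0.43 (-0.15 to 0.98) in the NTD library. Nrcam, which binds axons, was lower in Foxa2 holders of both libraries (-0.95, -1.68 to -0.31, and -0.77, -1.25 to -0.33), as was Ephb1 (-2.41, -5.82 to -0.70, and -0.78, -1.37 to -0.27). Members with at least 3 rule genes, 18 and 38, had higher levels of Spon1 (2375 and 1558 CPM), Slit2 (5139 and 4830 CPM) and Sulf1 (2424 and 1656 CPM) than all members. Ttc6 stood at 97.0 CPM (6 UMIs) and 227 CPM (44 UMIs) there, higher than in all members only in the NTD library. The deepest NTD barcode with at least 3 rule genes held 30847 of the 193809 UMIs of that class, and its part in these levels was not tested.

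Of 16 listed genes of the midbrain floor plate and its dopaminergic lineage, 8 were measured. At least 1.5-fold higher in members than in progenitors of both libraries were 5 of them: Lmx1a, Lmx1b, En1, Foxp2 (log2 ratios 0.90 and 1.04) and Otx2 (1.15 and 0.86). Msx1 was the 1 gene that much lower in both (-1.32 and -0.66). These counts stand beside 4.49% and 0.675% of all measured genes. En1 rested on 6 control UMIs, with a control log2 ratio of 1.14 (-0.63 to 2.65). The 16 genes summed to 1205 and 1088 CPM in members and 612 and 552 CPM in other progenitors. In roof plate-like barcodes the sums were higher than in members, at 1408 and 1180 CPM. The neuron genes of this lineage had few UMIs: Nr4a2 had 6 and 19 UMIs in members, Th had 1 and 2, and Pitx3 had 0 in both. Neurog2, a proneural gene, had 11 and 40 UMIs.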

How the data were processed

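Single cells of embryonic mouse brain had been profiled with 10x Chromium 3′ v3 kits, per the labels' protocols, in 1 control and 1 NTD library. The deposited matrices hold UMI counts per gene and barcode. Per the file headers, the authors used Cell Ranger 7.0.1. Cell Ranger, STAR and build mm10 are named in the submitters' processing notes. Whether intronic reads entered the counts, or cells were filtered, is not given in the sources used here. No further filter on cells was applied other than doublets, called with Scrublet (scanpy 1.11.5, expected rate 0.008 per 1000 barcodes, automatic threshold) in each library. It called 3042 control barcodes (16.4%) and 2399 NTD barcodes (12.6%), which left 15530 and 16657. Of the members by the rule, 20 control and 38 NTD barcodes were removed in this way.

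UMIs were summed per class and library and given as CPM. Log2 ratios had 0.5 counts added to each sum. Intervals were exact Poisson for levels, exact conditional binomial for ratios, Clopper-Pearson for shares and Newcombe for differences of shares. Genes with at least 30 UMIs over the members of both libraries counted as measured, and 1.5-fold was the size counted. Thinning drew 1500 UMIs per barcode without replacement and left out shallower barcodes. Endothelial barcodes held UMIs of at least 3 of 7 endothelial genes, and roof plate-like barcodes of at least 2 of 5 roof plate genes. The steps were tested on simulated data. numpy 2.4.6, scipy 1.17.1, pandas 2.3.3, matplotlib 3.10.9 and, for TMM scaling, edgeR 4.0.16 in R 4.3.3 were used. Gene positions are from GENCODE (GRCm38), where 32235 of 32285 gene IDs matched, and promoters from RefSeq (GRCm38.p6).

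Named genes were the 5 rule genes and genes of the floor plate, Hedgehog, position and N6-methyladenine lists. Further named genes were the 10 highest and 10 lowest NTD over control of at least 100 CPM in either library, and the 15 with the largest lower ratio over progenitors of at least 50 CPM in both. Up to 3 genes of at least 20 CPM came from each other list. Haemoglobin, mitochondrial and ribosomal protein genes and predicted models were not named by size. The members and lists were chosen with earlier results of these data known. A few genes that the naming rule picks are not reported here.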

Additional observations from a re-analysis of the deposited data

Results flagged for a closer look

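Of 304 named or listed genes whose ratio of members over other progenitors was compared between the libraries, 2 had opposite signs with both intervals off 0. Dcc, a netrin receptor, had a log2 ratio of -0.78 in the control and 0.12 in the NTD library. Ralyl, a gene of an RNA-binding protein, had -0.99 in the control and 0.63 in the NTD library. The differences between these values were not tested, since each group had 1 library.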

How the results depend on the processing

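The ratio of the member share, 2.09, was 1.46 with every barcode thinned and 1.36 in members that held Foxa2, and 1.75 to 2.48 under the other settings. The difference in the Otx2 or En share was 6.17 points after thinning and 5.23 points with at least 2 UMIs asked for. The counts of genes at least 1.5-fold higher and lower in NTD members, 705 and 1053, were 297 and 274 (of 1947 measured) with at least 3 rule genes. They were 332 and 318 (of 2060) without members of at least 3 neuron genes, 357 and 375 (of 2692) in Foxa2 holders, 236 and 204 (of 3009) with a minimum of 100 UMIs, and 2692 and 5189 (of 17891) with no minimum. Fewer or more genes were measured in these settings. TMM scaling gave 846 and 861. The counts against progenitors, 346 and 52, were 138 and 16 without barcodes of at least 3 neuron genes and 186 and 14 in Foxa2 holders. Among named genes past 1.5-fold with an interval off 0, the ratios of NTD over control that turned sign were those of Myo16, Gas1 and Ttr. Myo16 had 0.49 (-0.23 to 1.35) with at least 3 rule genes. Without Hox holders, Gas1 had 0.43 (-1.27 to 3.84) and Ttr 0.20 (-0.99 to 2.00). In Foxa2 holders, Ttr had 0.22 (-0.63 to 1.19). All of these intervals hold 0, and the cause was not tested. Over all named genes, smaller ratios included, 11 of 89 turned sign without Hox holders, 4 of 114 with doublets kept, 5 of 75 after thinning, 4 of 47 with at least 3 rule genes, 4 of 55 in Foxa2 holders, 3 of 114 relative to genes of like span, 2 of 36 without neuron gene holders and 1 of 114 (Shh) with TMM scaling, and 0 in the other 3 settings. The settings by core gene (Foxa2, or Shh without it), by the lowest NTD total, by genes of like span and without the deepest barcodes were chosen after seeing the data. No paired analysis was possible because each group had 1 library and no label pairs them. Most holders of Shh or Foxa2 held 1 UMI of it, so depth and free RNA limit which barcodes count as members.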
